A study of Homo sapiens with 6 samples.

Results

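The annexins are a family of calcium-dependent, phospholipid-binding proteins, and 10 of their genes were followed in H2452 cells, an established pleural mesothelioma line, with and without an sgRNA against the tumour suppressor NF2. The 10 genes, ANXA1, ANXA2, ANXA3, ANXA4, ANXA5, ANXA6, ANXA7, ANXA9, ANXA10 and ANXA11, were picked by gene name among the 58735 rows of the count table, and the family was chosen by its values in this same comparison of sgNF2-1 with sgCtrl. Their differences between the groups are therefore a description. Whether a member passed the threshold set for all genes is stated, but with no p, and it is not a test of the member or of the family. RNA was sequenced from 3 libraries per group, which are the whole series. Both groups were infected with a lentivirus carrying an sgRNA together with Cas9 and mCherry, and mCherry-positive cells were sorted 3 days after infection. The sgCtrl cells carried a scrambled sgRNA and are labelled WT, and the sgNF2-1 cells carried an NF2-targeting sgRNA and are labelled NF2-KO. Each group is thus a sorted pool of 1 line with 1 sgRNA, grown in RPMI-1640 with fetal bovine serum, and neither a clone nor a panel of lines. The study describes its replicates in general as biological, while the labels do not say what separates the 3 libraries of a group, so the errors measure the spread between these libraries. In a bulk library, fewer cells of a type and less RNA per cell cannot be told apart.

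An annexin consists of a conserved core of repeats that binds acidic phospholipids, above all phosphatidylserine, when calcium is present, and of an N-terminal tail that differs between members and recruits partners such as S100 proteins. Annexins gather at membranes when calcium rises, where they aggregate vesicles, help to seal wounds of the plasma membrane and link membranes to the actin cytoskeleton. ANXA1 is known as an anti-inflammatory ligand of formyl peptide receptors, ANXA2 as the S100A10-bound annexin that collects plasminogen and its activator at the cell surface, and ANXA5 as the protein used to stain phosphatidylserine on dying cells.

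ANXA2 has a processed copy of its transcript, and the sequences of both show where their reads can be told apart and where not. ANXA2P2 is a pseudogene on chromosome 9 (33624274 to 33625293, plus strand), of which 1004 of 1020 bases (98.4%) were identical to the principal ANXA2 transcript, with no gap. The stretch with most differences is printed from GENCODE release 29 (GRCh38), with the differing bases in capitals. It lies in exon 5 of the principal ANXA2 transcript at chr15:60364434-60364523 (minus strand), and in the pseudogene at chr9:33624422-33624511 (plus strand).

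ANXA2: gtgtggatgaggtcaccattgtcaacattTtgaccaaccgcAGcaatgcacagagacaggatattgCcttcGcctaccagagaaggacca

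ANXA2P2: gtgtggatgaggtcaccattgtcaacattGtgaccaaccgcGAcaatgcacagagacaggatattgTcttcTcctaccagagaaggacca

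These 90 bases hold 5 of the differences, so a read covering them can be placed. Elsewhere the copies are alike over longer runs: 115 of the 871 windows of 150 bases in ANXA2P2 (13.2%), the length of 1 read, and 575 of its 971 windows of 50 bases (59.2%) also occurred in ANXA2. Seen from the principal ANXA2 transcript, 115 of its 1527 windows of 150 bases also occurred in ANXA2P2. How reads that fit both places were counted is not given in the sources used here, so the counts of this pair are uncertain. The 10 members themselves are well separated, since none of the 45 pairs of their principal transcripts shared a window of 50 bases, nor one of 30.

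The 10 genes do not form a cluster in the genome. On GRCh38, ANXA1 lies on chromosome 9 (73151757 to 73170393, plus strand), ANXA2 on chromosome 15 (60347134 to 60402883, minus strand), ANXA4 on chromosome 2 (69644425 to 69827100, plus strand), ANXA6 on chromosome 5 (151100712 to 151157882, minus strand) and ANXA9 on chromosome 1 (150982017 to 150995634, plus strand). Chromosome 4 carries ANXA3 (78551519 to 78610451, plus strand), ANXA5 (121667955 to 121697113, minus strand) and ANXA10 (168092515 to 168187690, plus strand), and chromosome 10 carries ANXA7 (73375101 to 73414076, minus strand) and ANXA11 (80150889 to 80205572, minus strand). The deposited gene lengths cover all exons of each gene. The exons of ANXA7 overlapped those of an antisense gene, AL512656.1, over 105 bases (3.67% of its exon length), and that gene averaged 0 counts in sgCtrl and 0.333 in sgNF2-1. No other member shared exon bases with another gene.

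NF2 encodes merlin, which acts upstream of the Hippo kinases and so of the TEAD transcription factors, and RefSeq promoter windows (GRCh38.p14, from 250 bases before to 50 after each start) were searched on both strands for short motifs. All 10 members matched, with 14 windows. The TEAD motif GGAATG was in 0 of the 14, against 4928 of all 35116 promoter windows (14.03%). Nothing is read from this about TEAD control, since 14 windows are few and sequence outside them was not searched. The AP-1 motif TGANTCA was in 1 window, that of ANXA2 (7.71% of all windows), and the E-box CACGTG in 2, a window of ANXA4 and one of ANXA6 (7.26% of all windows); the motifs do not overlap. The parts of the ANXA2 and ANXA4 windows that hold a match and lie outside annotated exons are printed with the match in capitals, at chr15:60398044-60398236 (minus strand) and chr2:69741884-69741973 (plus strand). Both matches fall within the bounds of their own gene, ahead of one of its internal starts. The ANXA3 window lay wholly in a GENCODE exon, held none of the 3 motifs and is not printed.

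ANXA2: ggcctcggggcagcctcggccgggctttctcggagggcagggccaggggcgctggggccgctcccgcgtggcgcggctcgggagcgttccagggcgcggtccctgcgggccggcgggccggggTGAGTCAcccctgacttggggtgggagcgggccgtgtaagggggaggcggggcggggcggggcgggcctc

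ANXA4: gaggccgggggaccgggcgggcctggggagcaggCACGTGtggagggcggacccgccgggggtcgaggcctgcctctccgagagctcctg

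The libraries held between 14782423 and 17416463 counts. Counts are given as deposited, and CPM is a count scaled to its library's total after edgeR's TMM adjustment. NF2 itself had 1162, 1197 and 1025 counts in sgCtrl and 692, 802 and 590 in sgNF2-1, which is -0.69 on the log2 scale with a standard error of 0.10 (edgeR adjusted p = 7.871e-06), so its transcript was lower but present. Of 10 mesothelial and mesothelioma markers, 8 were tested, and MSLN, KRT7 and THBD rose while WT1, KRT19 and PDPN fell, beside 17.7% and 16.6% of all tested genes that were called higher and lower. Of 8 markers of other cell types, only the endothelial PECAM1 was tested, with 83 to 117 counts in sgCtrl and 16 to 26 in sgNF2-1, and the leukocyte gene PTPRC and the lung epithelial genes SFTPC and NKX2-1 had 0 counts in all 6 libraries. The part of these marker differences in the annexin values was not tested.

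Levels of different genes are compared as FPKM, the deposited fragment values scaled by the summed exon length of the gene and the depth of the library. In sgCtrl the family ran from ANXA2 at 300.4 ± 33.7 FPKM (SD, n = 3) at the top down to ANXA10 at 0.144 ± 0.192. ANXA1 followed ANXA2 at 170.4 ± 18.1 FPKM, ANXA5 had 120.2 ± 4.42 and ANXA7 had 83.2 ± 9.61. The next tier was ANXA11 at 27.1 ± 0.147 FPKM, ANXA3 at 18.3 ± 2.09, ANXA4 at 9.72 ± 0.275 and ANXA6 at 3.28 ± 0.449, and ANXA9 stood at 0.439 ± 0.025. No 2 neighbours in this order had overlapping ranges over the 3 libraries.

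In sgNF2-1 the order was the same but for 1 exchange. ANXA3 stood at 40.8 ± 3.22 FPKM (SD, n = 3), above ANXA11 at 25.0 ± 1.17, and so moved from the sixth place of the family to the fifth. The other members kept their places, with ANXA2 at 254.1 ± 21.6 FPKM, ANXA1 at 137.3 ± 9.16, ANXA5 at 115.2 ± 2.40, ANXA7 at 81.6 ± 3.68, ANXA4 at 7.73 ± 0.317 and ANXA6 at 2.01 ± 0.211. Only the last neighbours, ANXA9 at 0.452 ± 0.248 and ANXA10 at 0.139 ± 0.058, overlapped between libraries. The levels themselves, and the places in the middle of the order, depend on the length used. ANXA2 has 8824 summed exon bases and a principal transcript of 1676 bases. Scaled by the principal transcript instead, ANXA2 stood at 1679 and ANXA1 at 373.5 in sgCtrl, so the gap between them was wider than in FPKM. Per length of the principal transcript, a choice made after the values were seen, ANXA3 ranked 5 of the 10 in sgCtrl and 4 in sgNF2-1, where it passed ANXA7.

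Of the 10 members, 9 passed the filter on low counts and entered the fit over 14179 genes. For all genes, higher or lower is called at a Benjamini-Hochberg adjusted p under 0.05 in edgeR's quasi-likelihood fit over all these genes. As a description, 1 member, ANXA3, fell on the higher side of that threshold, beside 17.7% of all tested genes, and 3 members, ANXA1, ANXA4 and ANXA6, on the lower side, beside 16.6% of all tested genes. The other 5 did not pass it. The study's methods give a p under 0.05 beside a log2 fold limit of 0.5 and do not say whether that p is the adjusted one. With the p taken as unadjusted, ANXA3 was past these limits as higher (9.22% of all tested genes) and ANXA6 as lower (10.8%). The CPM values of the groups did not overlap for 5 of the 10 members, 1 higher and 4 lower, beside 45.3% of all tested genes. The median log2 fold change of the 9 was -0.10, and that of all tested genes was -0.0025. Since the comparison itself chose the family, nothing is read from these shares.

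ANXA3, a member linked to membrane trafficking and to growth of several tumours, was the only one past the threshold as higher. It had 1429, 1540 and 1697 counts in sgCtrl and 4001, 3128 and 3388 in sgNF2-1. In CPM these were 90.7, 93.8 and 111.8 against 227.4, 202.7 and 237.9, so that the lowest sgNF2-1 library stood well above the highest sgCtrl library. The mean went from 98.8 ± 11.4 to 222.6 ± 18.1 CPM (SD, n = 3), a 2.25-fold difference or 1.17 on the log2 scale (standard error 0.09). The log2 difference lay between 1.12 and 1.27 over all alternatives tried, including those with 1 library left out. ANXA3 is also among the candidates that the study picked as higher both in these libraries and in a separate protein measurement, which was not analysed here, so its place among them is no independent evidence of the RNA direction.

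ANXA6, the member with a duplicated core, known for its part in cholesterol and endosome traffic, had the lowest ratio. Its counts were 251, 322 and 317 in sgCtrl and 183, 180 and 183 in sgNF2-1. In CPM these were 15.9, 19.6 and 20.9 against 10.4, 11.7 and 12.9, and the groups did not overlap. The mean was 18.8 ± 2.58 in sgCtrl and 11.6 ± 1.23 in sgNF2-1 (SD, n = 3), which is 0.617 of the control level or -0.70 on the log2 scale (standard error 0.14).

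ANXA4, found mostly in epithelial cells and able to slow the movement of membrane proteins, was lower by a smaller and tighter step. It had 1793, 1801 and 1767 counts in sgCtrl and 1559, 1466 and 1272 in sgNF2-1. The CPM values were 113.8, 109.7 and 116.4 against 88.6, 95.0 and 89.3, with a gap between the groups. The log2 fold change was -0.32 (standard error 0.08), and in each alternative fit at the adjusted threshold it stayed on the lower side.

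ANXA1 differed by about as much as ANXA4, with more spread. It had 12280, 12465 and 13987 counts in sgCtrl and 11320, 9843 and 10246 in sgNF2-1. In CPM these were 779.1, 759.4 and 921.7 against 643.3, 637.7 and 719.5, so that sgNF2-1 replicate 3 came close to the lower sgCtrl libraries without reaching them. The mean was 820 ± 88.6 and 667 ± 45.7 CPM (SD, n = 3), or -0.30 on the log2 scale (standard error 0.09). Its place past the threshold rests on single libraries, and it was not past it without sgCtrl replicate 3, at a log2 fold change of -0.20, and without sgNF2-1 replicate 1 or 2, at -0.27 and -0.26.

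ANXA2, by far the most abundant member, did not pass the threshold. Its counts were 40282, 43981 and 47900 in sgCtrl and 40978, 34215 and 37300 in sgNF2-1. As CPM they were 2556, 2679 and 3156 against 2329, 2217 and 2619, and the groups overlapped, because sgNF2-1 replicate 3 exceeded sgCtrl replicate 1. The log2 fold change was -0.23 (standard error 0.10), and without either of these libraries, at -0.29 without sgCtrl replicate 1 and -0.30 without sgNF2-1 replicate 3, ANXA2 passed it as lower. It also did so with DESeq2, with library totals in place of TMM and with a replicate block.

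The pseudogene ANXA2P2 had 3096, 3082 and 3149 counts in sgCtrl and 2758, 2304 and 2476 in sgNF2-1. Its log2 fold change was -0.30 (standard error 0.08), and its groups did not overlap. These counts amounted to 7.09 ± 0.560% of the ANXA2 count in sgCtrl and 6.70 ± 0.0544% in sgNF2-1 (SD, n = 3). The share was 7.69%, 7.01% and 6.57% in sgCtrl replicates 1, 2 and 3, so it was nearly fixed only in sgNF2-1. With the 2 rows added together, an alternative chosen after the values were seen, the log2 fold change of ANXA2 was -0.23 (standard error 0.10), and it still did not pass the threshold.

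ANXA11, which tethers RNA granules to lysosomes, had 3860, 3971 and 3709 counts in sgCtrl and 3919, 3369 and 3408 in sgNF2-1. The sgCtrl libraries were tightly grouped at 244.9, 241.9 and 244.4 CPM, and all 3 lay above the 222.7, 218.3 and 239.3 CPM of sgNF2-1. The step was nevertheless small, with a log2 fold change of -0.10 (standard error 0.08), under the threshold. The sgCtrl SD of 1.60 CPM was small beside the 11.1 CPM of sgNF2-1.

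ANXA5 and ANXA7 were close to level between the groups. ANXA5 had 5945, 6160 and 6095 counts in sgCtrl and 6438, 5700 and 5431 in sgNF2-1, which is 384.7 ± 14.7 against 372.2 ± 8.14 CPM (SD, n = 3) and a log2 fold change of -0.05 (standard error 0.08). ANXA7, an annexin with a long N-terminal tail that was first named synexin for its fusion of secretory granules, had 3608, 3941 and 4316 counts in sgCtrl and 4377, 3659 and 3712 in sgNF2-1. Its mean was 251.1 ± 29.4 and 248.8 ± 11.8 CPM, which differ by -0.01 on the log2 scale (standard error 0.09). Both genes overlapped between the groups, and neither passed the threshold.

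ANXA9 and ANXA10 were barely counted. ANXA9, whose core lacks the usual calcium-binding sites, had 14, 13 and 13 counts in sgCtrl and 21, 5 and 16 in sgNF2-1. Its log2 fold change of 0.06 had a standard error of 0.46, too imprecise to say whether it differed by as much as ANXA6. ANXA10, an annexin typical of the stomach lining, had 11, 1 and 1 counts in sgCtrl and 7, 3 and 3 in sgNF2-1. Each group summed to 13 counts, most of the sgCtrl ones came from replicate 1, and the gene did not pass the filter.

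The other rows with an annexin symbol were low. ANXA8, an annexin of stratified epithelia, had 21, 29 and 43 counts in sgCtrl and 37, 25 and 15 in sgNF2-1, and its close relative ANXA8L1 had 8, 9 and 18 against 4, 10 and 5. The 2 are 99.5% identical over the aligned transcript, and 58.4% of the 150-base windows of ANXA8L1 also occur in ANXA8, so reads could be split between them. ANXA2R, which encodes a receptor for the ANXA2 complex, had 26, 11 and 12 counts against 15, 5 and 12. The pseudogene ANXA2P1 had at most 4 counts in a library, and ANXA13 and ANXA2P3 had 0 in all 6.

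**Figure D1:**
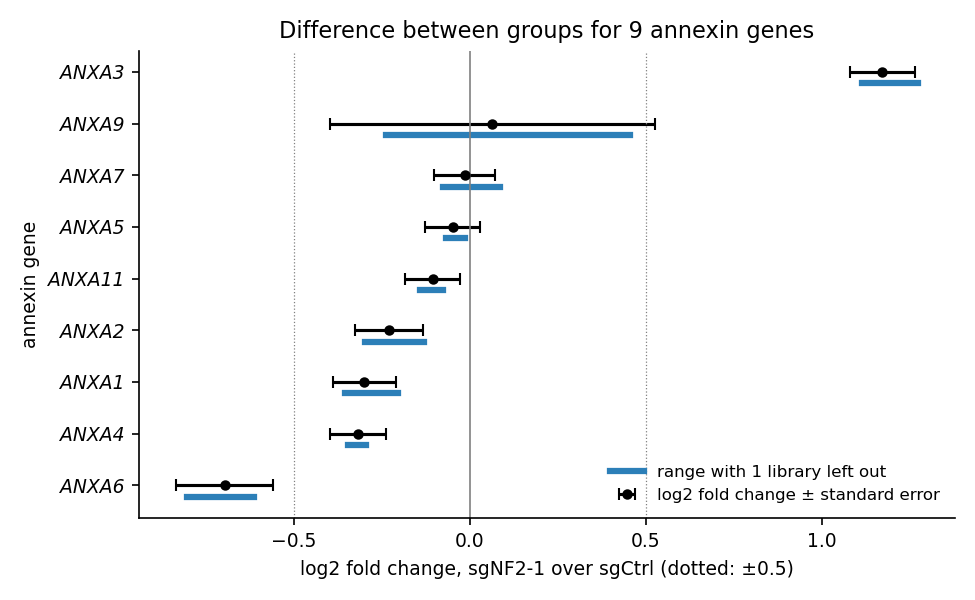
Log2 fold change of sgNF2-1 over sgCtrl for the 9 annexin genes that entered the fit, with black points and bars for the value and its standard error, and blue bars for the range of values with 1 library left out. ANXA3 lies at 1.17 and ANXA6 at -0.70, both beyond the dotted lines at 0.5 and -0.5, and the ANXA7 and ANXA9 ranges cross 0.

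Within each group, replicate 3 held the highest value of most members. In sgCtrl, replicate 3 had the highest CPM for 7 of the 10 members, and in sgNF2-1 replicate 3 did so for 7 of the 10 as well. Over all counted genes, replicate 3 was also the library that differed most from the rest of its group. The share of all genes highest in replicate 3 was not computed, so nothing is read from these counts about the family. Replicate 3 of sgCtrl was the highest library of its group for ANXA1, ANXA2 and ANXA3 alike, whether the gene was lower or higher in sgNF2-1. As a share of the summed member counts, ANXA3 varied less between libraries than its CPM did. It took 2.09 ± 0.036% of the member counts in sgCtrl and 5.26 ± 0.212% in sgNF2-1 (SD, n = 3).

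Together the 10 members took 0.476 ± 0.0345% of all counts in sgCtrl and 0.418 ± 0.0214% in sgNF2-1 (SD, n = 3), a ratio of 0.879. Per length, they made up 0.279 ± 0.0115% of the summed FPKM and 0.242 ± 0.00946%, a ratio of 0.868. This sum mostly follows ANXA2, which held 59.1 ± 1.03% of the member counts in sgCtrl and 56.4 ± 0.932% in sgNF2-1, and ANXA1, which held 17.3 ± 0.469% and 15.8 ± 0.219%. The higher ANXA3 count made up a small share of the family's transcripts in both groups.

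Annexin tails are bound by EF-hand proteins, small calcium sensors, and by the scaffold AHNAK. Of 10 such partners 7 were tested, 1 rose and 4 fell, beside 17.7% and 16.6% of all tested genes, with a median log2 fold change of -0.27. This list and those that follow were set with earlier results of these data known. Their adjusted p values describe single genes among all tested genes and do not test a list. S100A10, the obligate partner of ANXA2, had 4278, 4645 and 4386 counts in sgCtrl and 3541, 3543 and 3073 in sgNF2-1. It fell by 0.38 on the log2 scale (standard error 0.08, adjusted p = 0.0005839, edgeR), with all sgNF2-1 libraries below all sgCtrl ones. S100A10 stood at 172.7 ± 5.41 FPKM in sgCtrl and 131.2 ± 8.89 in sgNF2-1 (SD, n = 3), below ANXA2 in both.

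S100A4, a metastasis-linked S100 protein that can bind ANXA2, showed the widest gap of the list, with 2476, 2313 and 2445 counts in sgCtrl and 1007, 819 and 949 in sgNF2-1. The log2 difference was -1.38 with a standard error of 0.09 (edgeR adjusted p = 3.217e-11). S100A6, a partner of several annexins, fell by 0.32 (adjusted p = 0.01667, edgeR) and AHNAK by 0.27 (adjusted p = 0.02293, edgeR). SRI, which encodes sorcin, a partner of ANXA7, rose by 0.29 (adjusted p = 0.03096, edgeR). S100A11, the partner of ANXA1, had a log2 fold change of 0.08 (adjusted p = 0.4805, edgeR), and PDCD6, the partner of ANXA7 and ANXA11, one of -0.10 (adjusted p = 0.3689, edgeR). The number of called partners was 5 with all libraries, 3 without sgCtrl replicate 2 or sgNF2-1 replicate 3, and 2 without sgNF2-1 replicate 2.

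The genes of the receptors for secreted ANXA1, and of a phospholipase that ANXA1 can inhibit, were at or near 0. FPR2, its best known receptor, and FPR3 had 0 counts in all 6 libraries, where 3 counts would be 0.172 to 0.203 CPM. FPR1 had 2 counts in 1 sgCtrl library and 0 elsewhere. PLA2G4A, the cytosolic phospholipase that ANXA1 can inhibit, had 0 to 5 counts per library. None of the 4 could be tested.

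Annexins act in plasma membrane repair beside dysferlin, synaptotagmin, calpains, caveolar proteins and the ESCRT machinery. Of 18 such genes outside the family 16 were tested, 4 rose, 2 fell and 10 did not pass the test, beside 17.7% and 16.6% of all tested genes, with a median log2 fold change of 0.0007. SYT7, a calcium sensor of lysosome exocytosis, had 49, 65 and 51 counts in sgCtrl and 197, 171 and 155 in sgNF2-1, or 1.67 on the log2 scale (standard error 0.18; edgeR adjusted p = 5.632e-08). DYSF, which encodes dysferlin and is a known binding partner of ANXA1 and ANXA2, rose by 0.74 on the log2 scale from 129.5 ± 6.92 to 217.0 ± 5.48 CPM (edgeR adjusted p = 7.607e-08). The ESCRT genes VPS4A and TSG101 rose by 0.32 and 0.26 (edgeR adjusted p = 0.006136 and 0.01559). SMPD1, the acid sphingomyelinase released from lysosomes at a wound, fell by 1.04 (edgeR adjusted p = 1.561e-08), and CAV1, the main caveolar protein, fell by 0.69 (edgeR adjusted p = 8.964e-07).

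Phosphatidylserine is the lipid annexins bind, and transcripts of 15 genes for its synthesis and movement across the membrane were counted. Of these genes 11 were tested, 4 rose, 4 fell and 3 did not pass the test, beside 17.7% and 16.6% of all tested genes called higher and lower. The genes that rose were PTDSS1 and PTDSS2, which make phosphatidylserine (0.26 and 0.50 on the log2 scale, edgeR adjusted p = 0.01892 and 8.717e-05), PISD, which converts it to phosphatidylethanolamine in mitochondria (0.87, adjusted p = 1.899e-08), and ATP8B1, a flippase (0.40, adjusted p = 0.000823). Those that fell and are named here belong to lipid movement across the membrane, as does ATP8B1 among those that rose. TMEM30A, a chaperone subunit of the flippases that keep phosphatidylserine inside, had a log2 fold change of -0.58 (edgeR adjusted p = 5.837e-06). The scramblase ANO6, which exposes it, had one of -0.38 (edgeR adjusted p = 0.001383), and PLSCR4, named as a scramblase, one of -1.06, from 408.2 ± 25.3 to 195.3 ± 15.7 CPM (edgeR adjusted p = 6.061e-10).

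Plasminogen activation, which ANXA2 with S100A10 promotes at the cell surface, was covered by 8 genes, of which 7 were tested. Beside 17.7% of all tested genes called higher, only PLAU, the urokinase activator, passed, at 0.24 on the log2 scale with a standard error of 0.09 (edgeR adjusted p = 0.03292), and none passed without any 1 of the 3 sgCtrl libraries.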

How the data were processed

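RNA of 3 sgCtrl and 3 sgNF2-1 H2452 libraries was sequenced by the study as 150-base paired-end reads, and groups and replicate numbers follow the sample titles. For each gene the authors deposited raw counts as well as FPKM values, with hg38 as the build. The submitters' processing notes name HISAT2, StringTie 1.3.3b and featureCounts 1.5.0-p3, and their roles, the strand setting and the treatment of multiply mapped reads are not given in the sources used here. Gene lengths were deposited beside the values and equal, for the annexin genes, the summed exons of GENCODE release 29.

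Counts were filtered with filterByExpr (minimum count 10, minimum total 15), normalized by TMM and fitted by group with edgeR 4.0.16 in R 4.3.3, with Benjamini-Hochberg adjustment over the 14179 tested genes. FPKM served for levels only. The procedure was tested on simulated counts. Columns were compared before averaging: library pairs within a group had a chi-square per degree of freedom of 5.17 to 12.6, and pairs between groups 40.1 to 52.7.

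The members, the partner lists and the tests were chosen with earlier results of these data known. Named are all members, all other rows with an ANXA symbol, NF2, in lists of up to 10 genes every gene with an adjusted p under 0.05, in longer lists up to 4 per direction by size of change, and S100A10, S100A11, PDCD6, FPR1 and FPR2. 1 gene taken in by this choice is not reported here. Alternatives were DESeq2 1.42.0, its size factors, library totals, other filters, protein-coding genes only, a replicate block, the study's limits with the p taken as unadjusted and leaving out each library.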

Additional observations from a re-analysis of the deposited data

How the results depend on the processing

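Of 265 values recomputed under an alternative, 231 kept their direction and side of the threshold, or moved little. Small shifts in a count of called genes, such as from 3 members called lower to 2 or 4, are among these 231. So are 13 values for the list of ANXA1 receptors and phospholipase, of which no gene entered the main fit. ANXA3, ANXA4 and ANXA6 stayed on their side of the threshold under every alternative fit at the adjusted threshold, with log2 fold changes of 1.12 to 1.27, -0.35 to -0.29 and -0.80 to -0.61. With each library left out in turn, ANXA1 ranged from -0.35 to -0.20, ANXA2 from -0.30 to -0.13, ANXA7 from -0.0754 to 0.0875 and ANXA9 from -0.24 to 0.46. ANXA2 was called lower with DESeq2 (-0.23), library totals (-0.25) and the replicate block (-0.23). ANXA7 turned sign with no filter (0.001), without sgCtrl replicate 3 (0.0875) and without sgNF2-1 replicate 2 (0.02). ANXA9 did so with the replicate block (-0.0152) and without sgNF2-1 replicate 1 (-0.24) or 3 (-0.12), and was not tested where every library needed 10 counts. The cause of these shifts was not tested. With the study's limits and the p taken as unadjusted, 1 member was lower, and 1308 and 1531 of all genes were higher and lower. Leaving out a library gave 2 to 4 members called lower, 2 to 5 called partners and 0 to 1 called plasminogen genes. The last were 2 with DESeq2, its size factors, at least 10 counts in every library, the replicate block and protein-coding genes only, and 0 with no filter. Per length of the principal transcript, ANXA3, ANXA4 and ANXA11 ranked 5, 6 and 7 in sgCtrl, and ANXA3 and ANXA7 ranked 4 and 5 in sgNF2-1. Same-numbered libraries deviated from their group means with correlations of -0.0319, 0.0566 and 0.0498. Differently numbered libraries had correlations between -0.1073 and 0.0602. These values show no pairing by number, but with 3 libraries per group they cannot exclude one. With the replicate block the calls went from 2515 and 2351 to 2698 and 2501. Counts of about 40 in a group for ANXA9 and 13 for ANXA10 limit what can be said of them.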
